A study of Mus musculus with 15 samples.

Results

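The proteasome genes of mouse skeletal muscle were taken as all symbols that start with Psma to Psmg followed by a digit, without pseudogene symbols, at a mean of at least 1 CPM (counts per 1000000 counts of the library) over the 15 libraries of the study. The rule found 47 of 22798 genes in the count table. They comprise 7 alpha ring genes, 7 constitutive beta ring genes and 2 immunoproteasome beta genes of the 20S core, 17 genes of the 19S regulatory particle (6 base ATPases, 3 other base subunits and 8 lid subunits), 3 genes of the interferon-inducible 11S activator, 2 other activators, 1 inhibitor and 7 assembly chaperones. Psmc3ip, the remaining member, shares only the prefix and is no proteasome subunit. Just inside the threshold lay Psmc3ip at 1.24 CPM and Psmb8 at 2.50 CPM. Just outside lay the immunoproteasome subunit Psmb9 at 0.910 CPM and the testis alpha subunit Psma8 at 0.0119 CPM, and 1 pseudogene symbol was left out. Libraries came from C57BL/6 mice aged 12 months on a normal diet, and muscle was sampled following overnight starvation. The groups were 6 libraries of sedentary wild-type mice, 6 of exercise mice and 3 labelled CD47-KO, which the series text gives as CD47-/-. The labels name neither the muscle, the exercise protocol nor the way the knockout was made.

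The 20S proteasome is a barrel of stacked rings. Alpha subunits form the outer gates, and in the inner beta rings Psmb5, Psmb6 and Psmb7 carry the chymotrypsin-like, caspase-like and trypsin-like proteolytic sites. The 19S particle binds ubiquitin chains, removes them and unfolds the substrate with its ATPase ring, and the resulting 26S proteasome degrades much of the myofibrillar protein that muscle loses during fasting and disuse. Under interferon, Psmb8, Psmb9 and Psmb10 replace Psmb5, Psmb6 and Psmb7 in newly built immunoproteasomes, and Psme1 and Psme2 form the 11S cap. The transcription factor NRF1, encoded by Nfe2l1, raises the constitutive subunit genes together when proteasome activity falls short.

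Library totals ran from 50928458 to 84364189 counts, of which the 47 members took 0.317 to 0.437%. Mitochondrial transcripts made up 18.1 to 19.2% of counts in the libraries labelled CD47-KO and 18.2% in sedentary library 6, against 4.49 to 12.5% in the other 11. Cd47 itself did not separate the groups: it stood at 11.5 to 12.1 CPM in the libraries labelled CD47-KO and at 11.4 to 16.4 CPM in the sedentary ones, a log2 difference of -0.26 (SE 0.17, edgeR adjusted p = 0.295). Every direction below for the libraries labelled CD47-KO therefore rests on the label. Exercise and sedentary libraries numbered 4 to 6 also differed from those numbered 1 to 3 across many genes, and the 3 libraries labelled CD47-KO are numbered 1 to 3. The 6 fibre markers summed to 90204 to 131126 CPM in the libraries labelled CD47-KO, 111750 to 210316 in sedentary and 138850 to 242305 in exercise libraries. Of these markers 2 of 6 (Acta1 and Ckm) fell in the libraries labelled CD47-KO against both other groups, Acta1 with 16689 to 20032 CPM against 31888 to 45130. Against sedentary 1 of 6 had a log2 difference above 0. With a correction of each library for GC content, 0 of 6 fell against either group and 1 rose against sedentary. All markers of muscle fibres, leukocytes, endothelium, fibroblasts and satellite cells were above 0 in each group.

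Levels between genes were compared as CPM per kilobase of exon in sedentary muscle, with the exons of all annotated transcripts of a gene merged. In the beta ring this length ran from 899 bases (Psmb5) to 4595 (Psmb1), and the ranks and ranges below depend on it. In CPM alone, Psmb1 had a sedentary mean of 110 and Psmb5 of 97.7. Psmb5 was highest at 109 ± 23.8 (SD, n = 6), followed by Psma6 at 96.7 ± 32.5, the ATPase Psmc5 at 95.8 ± 18.3, the ATPase Psmc1 at 80.8 ± 20.1 and the lid subunit Psmd8 at 76.2 ± 21.9. These neighbours differ by less than their SDs. Subunits of 1 complex covered a wide range: 14.8 (Psma3) to 96.7 in the alpha ring, 23.9 (Psmb1) to 109 in the beta ring, 10.2 (Psmc6) to 95.8 among the ATPases and 11.1 (Psmd14) to 76.2 in the lid. The activators Psme3 and Psme4 stood at 19.3 and 18.6 per kilobase, the 11S genes at 6.77 to 9.04, the chaperones at 1.69 to 8.26 and the inhibitor Psmf1 at 2.23. Of the immunoproteasome beta genes, Psmb10 stood at 3.44 ± 2.07, Psmb8 at 0.940 ± 0.557 and Psmb9, outside the rule, at 0.270 ± 0.0883.

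Promoters are shown because the subunit genes are known targets of factors that bind antioxidant response elements. In the 250 bases before the RefSeq start (GRCm38.p6, 40 of 47 members matched), the element's core, TGACNNNGC on either strand, occurred in 5 of 40 members (12.5%) and in 11.5% of all 27025 genes. CCAAT occurred in 13 members (32.5%) and in 37.5% of genes, and the interferon-stimulated response element, searched as GAAA, any 2 bases and GAAA, in 3 members (Psmb3, Psmd4 and Psmd9, 7.5%) and in 3.46% of genes. No match of 1 motif overlapped a match of another. The 5 promoters with the core are printed 5′ to 3′ on the gene's strand, with the match in capitals. Psmb6 and Psmd9 are printed up to the last base before the RefSeq start. Psmb5, Psmc6 and Psmd12 are printed without the last 27, 36 and 44 bases of the window, which GENCODE places in an exon of the gene itself. Their RefSeq start, from which match distances are counted, therefore lies beyond the printed end.
Psmb5: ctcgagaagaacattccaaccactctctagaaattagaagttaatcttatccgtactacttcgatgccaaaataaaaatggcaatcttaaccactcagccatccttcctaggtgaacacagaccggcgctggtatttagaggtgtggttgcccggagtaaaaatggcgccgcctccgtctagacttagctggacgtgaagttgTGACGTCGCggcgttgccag
Psmb6: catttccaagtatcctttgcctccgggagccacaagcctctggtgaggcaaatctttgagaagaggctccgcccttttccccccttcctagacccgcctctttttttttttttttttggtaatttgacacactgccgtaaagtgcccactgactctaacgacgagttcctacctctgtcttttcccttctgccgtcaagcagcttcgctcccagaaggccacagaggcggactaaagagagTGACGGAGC
Psmc6: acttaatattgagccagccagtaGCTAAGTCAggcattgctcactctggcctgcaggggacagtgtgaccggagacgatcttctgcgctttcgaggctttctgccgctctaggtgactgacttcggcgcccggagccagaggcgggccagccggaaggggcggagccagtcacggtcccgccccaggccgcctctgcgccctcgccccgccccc
Psmd12: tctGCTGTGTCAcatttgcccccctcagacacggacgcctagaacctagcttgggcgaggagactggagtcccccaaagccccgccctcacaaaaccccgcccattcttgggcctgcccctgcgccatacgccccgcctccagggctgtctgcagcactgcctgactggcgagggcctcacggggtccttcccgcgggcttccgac
Psmd9: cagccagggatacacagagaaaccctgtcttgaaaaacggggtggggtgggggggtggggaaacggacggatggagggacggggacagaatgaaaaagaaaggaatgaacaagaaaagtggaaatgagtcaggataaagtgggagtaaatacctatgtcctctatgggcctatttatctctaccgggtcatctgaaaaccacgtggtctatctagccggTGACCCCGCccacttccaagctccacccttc
Psmb5 is shown over chr14:54618023-54618245 on the minus strand, with its match 47 to 39 bases before the RefSeq start. Psmb6 is shown over chr11:70525107-70525356, Psmc6 over chr14:45329574-45329787, Psmd12 over chr11:107479278-107479483 and Psmd9 over chr5:123227940-123228189, all on the plus strand. The Psmb6 match lies 9 to 1 bases and the Psmd9 match 31 to 23 bases before the start. The Psmc6 match (227 to 219 bases before) and the Psmd12 match (247 to 239 bases before) lie on the other strand, so their capitals read as the reverse complement. The Psmd9 window is intronic in a longer Psmd9 transcript and in the antisense gene Gm26745, and the other windows hold no exon of another gene. Between the libraries labelled CD47-KO and sedentary, the 5 genes share no direction: Psmb5 and Psmb6 fell, Psmc6 rose, and Psmd12 (log2 difference 0.32) and Psmd9 (-0.59) did not pass the test.

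**Figure D1:**
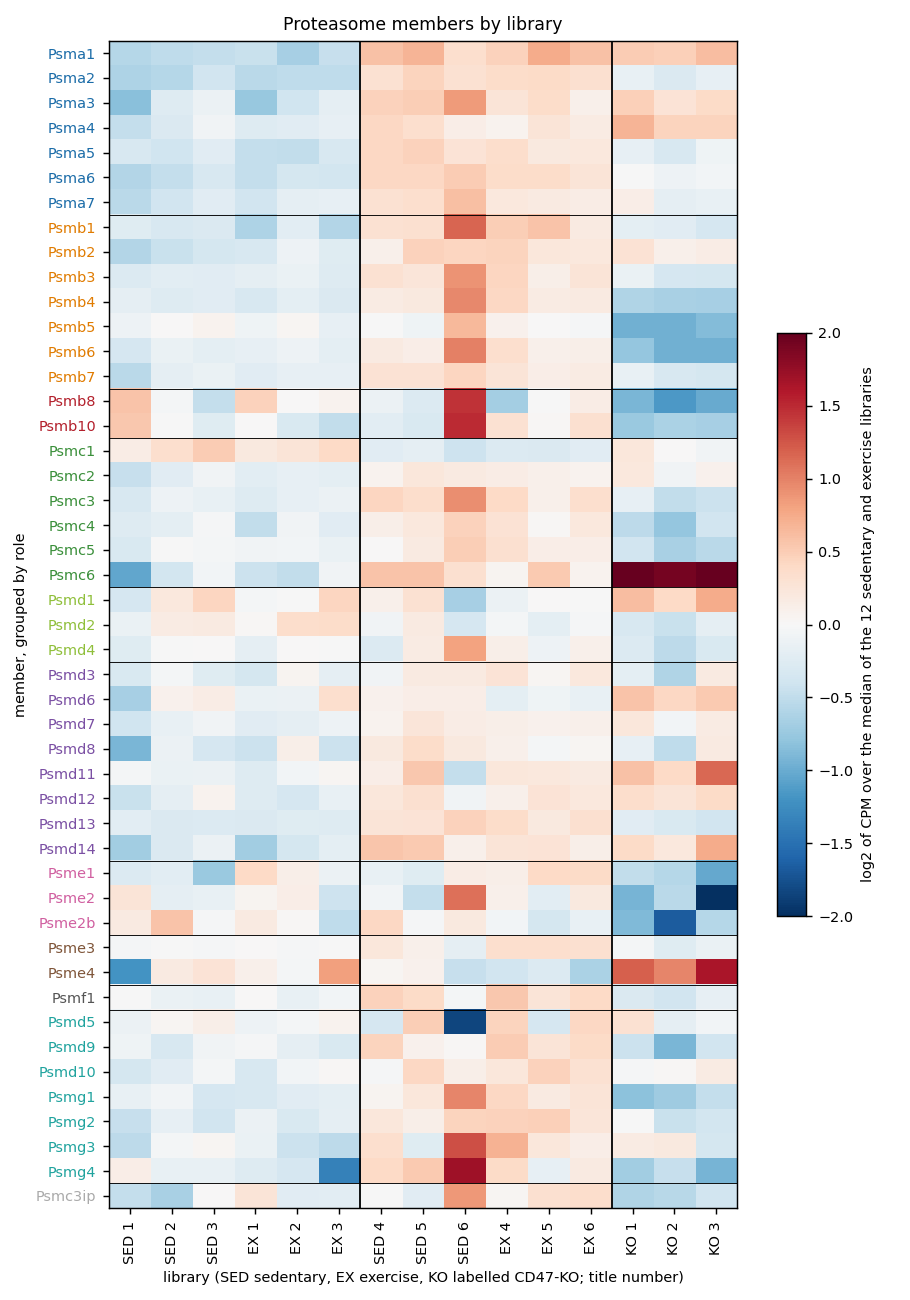
Level of each member in each library, as log2 of its CPM over the median of the 12 exercise and sedentary libraries, with members in rows by class and the color scale limited to -2 and 2. Columns are sedentary and exercise libraries numbered 1 to 3, those numbered 4 to 6, and the 3 libraries labelled CD47-KO. A reader sees the alpha ring and most of the beta ring lower in the first block than in the second, and Psmb5, Psmb6, Psmb8 and Psme2b low and Psmc6 and Psme4 high in the last block.

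No member passed the threshold between exercise and sedentary muscle. Of 17975 genes tested with edgeR's quasi-likelihood test, 0 passed an adjusted p of 0.05 (0% called), with 665 at an unadjusted p under 0.05, and DESeq2 called 2 higher and 7 lower. Among the 47 members, edgeR and DESeq2 called 0, and 2 had an unadjusted edgeR p under 0.05. The members' median log2 difference was -0.05, beside -0.03 over all genes. This edgeR fit had no term for the 2 sets of library numbers, between which many genes differed. Differences between exercise and sedentary muscle could therefore be missed, and 0 calls do not show that none exist. With a block for the 2 sets, edgeR also called 0 members. Since whole tissue was sequenced, fewer cells of a type and less RNA per cell cannot be told apart. Whether each library was a separate animal is not given in the labels, and the p-values may then reflect technical spread alone.

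The smallest p among higher members was that of Psme1, the alpha subunit of the 11S cap. It ranged over 13.9 to 25.9 CPM in sedentary libraries (median 19.9) and over 21.4 to 30.5 CPM in exercise libraries (median 27.7). The groups overlap, and the log2 difference was 0.44 (SE 0.16, adjusted p = 1.00). Next came Psme3, a nuclear activator, at 0.15 (SE 0.13), and the base chaperone Psmd5 at 0.23 (SE 0.27). On the lower side stood the core chaperone Psmg4 at -0.73 (SE 0.33), Psme2b at -0.36 (SE 0.20) and Psmb10 at -0.36 (SE 0.29). Every one of these had an adjusted p of 1.00.

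Between the libraries labelled CD47-KO and sedentary muscle the members moved in both directions: 3 rose and 9 fell. The 3 higher members are 6.38% of 47, against 11.9% of all genes, and the 9 lower ones 19.1%, against 8.75%. Those that rose were the base ATPase Psmc6, the activator Psme4 and the lid subunit Psmd11. Those that fell were the beta subunits Psmb4, Psmb5 and Psmb6, the immunoproteasome subunit Psmb8, the 11S genes Psme2 and Psme2b, the ATPases Psmc4 and Psmc5 and the chaperone Psmg1. No alpha ring gene passed. With a correction of each library for GC content, 1 of these 12 members (Psme2b) still passed. The libraries labelled CD47-KO are numbered 1 to 3. Against sedentary libraries 1 to 3 alone 12 members (25.5%) rose, 5 of 7 alpha genes among them, where 19.2% of all genes rose. In that fit 7 members (14.9%) fell, against 13.8% of all genes. A block for the 2 sets of numbers gave 10 higher and 6 lower, and its share of all genes is not given here. In the fit of all libraries the median log2 difference was -0.12 in the alpha ring, -0.51 in the constitutive beta ring, -0.00 in the 19S particle, 0.23 within its lid, and -1.20 over Psmb8, Psmb10, Psme1, Psme2 and Psme2b, beside -0.26 over all members and -0.11 over all genes. Psmb5, Psmc6, Psme2b and Psme4 passed whichever single library was left out. Without CD47-KO library 1, 2 or 3 the count of lower members was 3, 4 or 2, and without sedentary library 4 or 6 it was 5 and 5. Without sedentary library 6 that is 10.6% of members, against 7.62% of all genes. For the other fits the share of all genes called is not given here.

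Of the catalytic beta subunits, Psmb5 and Psmb6 fell and Psmb7 did not pass. Psmb5 stood at 46.3, 46.3 and 49.5 CPM in the libraries labelled CD47-KO. It stood at 84.5 to 141 CPM (median 90.6) in sedentary and at 80.3 to 96.0 CPM (median 89.8) in exercise libraries. Every library labelled CD47-KO lay below all 12 others, with a log2 difference from sedentary of -1.04 (SE 0.18, adjusted p = 0.000879) and from exercise of -0.91 (SE 0.18, adjusted p = 0.00208). The gene lies at chr14:54614119-54618022, and 12.1% of its exon bases are shared with the microRNA gene Mir686. Psmb6 stood at 67.2, 59.1 and 59.2 CPM, against 91.1 to 231 (median 116) in sedentary and 101 to 145 (median 115) in exercise libraries. These groups do not overlap either. The log2 differences were -1.08 from sedentary (SE 0.26, adjusted p = 0.00871) and -0.92 from exercise (SE 0.26, adjusted p = 0.0196). The first was lost without CD47-KO library 3 (-1.01), and the second without any 1 of the libraries labelled CD47-KO or exercise library 4 (-0.93 to -0.80). Psmb7 stood at 174, 155 and 151 CPM, within the 133 to 260.5 of sedentary libraries (median 206), and overlapped the 165 to 232 of exercise libraries (median 192). Its log2 difference from sedentary was -0.34 (adjusted p = 0.298). An antisense gene, Nek6, covers 11.8% of its exon bases, and without strand their reads cannot be told apart. Psmb4, a structural beta subunit, fell by 0.81 from sedentary on the log2 scale (SE 0.27, adjusted p = 0.0415) and not from exercise (-0.65, adjusted p = 0.0969). Its call was lost without sedentary library 4 (-0.77), 5 (-0.77) or 6 (-0.51) or without any 1 of the libraries labelled CD47-KO (-0.85 to -0.75).

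**Figure D2:**
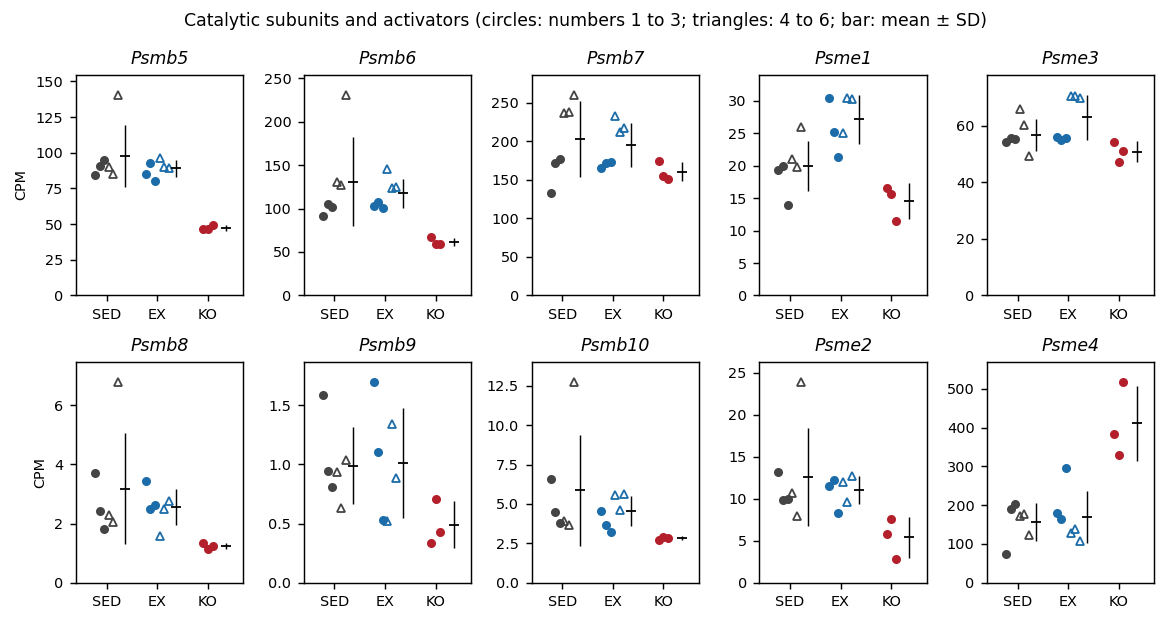
CPM (linear axes from 0) of Psmb5, Psmb6, Psmb7, the immunoproteasome genes Psmb8, Psmb9 and Psmb10 and the activators Psme1, Psme2, Psme3 and Psme4 in each library, by group. Circles are libraries numbered 1 to 3, triangles those numbered 4 to 6, and bars show mean and SD. Psmb5 in the libraries labelled CD47-KO, at 46.3 to 49.5 CPM, lies below all 12 others, and sedentary library 6 is the highest for Psmb5, Psmb6, Psmb8, Psmb10 and Psme2.

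Every immunoproteasome and 11S gene had a negative log2 difference in the libraries labelled CD47-KO, and 3 of the 5 in the rule passed against sedentary. Psmb8, the inducible counterpart of Psmb5, stood at 1.33, 1.12 and 1.24 CPM, against 1.80 to 6.78 (median 2.36) in sedentary and 1.56 to 3.42 (median 2.55) in exercise libraries. All 3 lay below the other 12. The log2 difference from sedentary was -1.37 (SE 0.40, adjusted p = 0.0234), and from exercise -1.05 (adjusted p = 0.0690). The first was lost without any 1 of the libraries labelled CD47-KO (-1.37 to -1.33), and 14.7% of Psmb8 exon bases are shared with the antisense gene Gm20496. Psmb10, the counterpart of Psmb7, stood at 2.72, 2.93 and 2.85 CPM, against 3.68 to 12.7 (median 4.20) in sedentary and 3.21 to 5.63 (median 4.60) in exercise libraries. Its groups do not overlap, but the log2 difference from sedentary of -1.05 did not pass (adjusted p = 0.0558). Psmb9, the counterpart of Psmb6, stood at 0.332, 0.710 and 0.430 CPM, against 0.629 to 1.58 (median 0.940) and 0.521 to 1.69 (median 0.996). Those ranges overlap, and the difference from sedentary was -1.01 (adjusted p = 0.127).

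Psme2, the beta subunit of the 11S cap, stood at 5.82, 7.60 and 2.80 CPM in the libraries labelled CD47-KO, against 7.94 to 23.9 (median 10.3) in sedentary and 8.32 to 12.7 (median 11.7) in exercise libraries. Library 3 is the lowest, and the groups do not overlap. The log2 difference was -1.22 from sedentary (SE 0.35, adjusted p = 0.0210), lost without CD47-KO library 1 (-1.23) or 3 (-0.87), and -1.03 from exercise (SE 0.35, adjusted p = 0.0447), which 7 of 9 fits without 1 library lost (lowest -1.04, highest -0.67): those without exercise library 1, 2, 4, 5 or 6 or CD47-KO library 1 or 3. Psme2b is a near copy of Psme2, so how reads that match both were counted is uncertain. It stood at 2.60, 1.52 and 3.25 CPM, against 4.74 to 7.13 (median 5.47) and 3.37 to 5.45 (median 4.50), again without overlap. It fell by 1.20 from sedentary on the log2 scale (SE 0.26, adjusted p = 0.00358) and by 0.84 from exercise (SE 0.25, adjusted p = 0.0262). The second call was lost without exercise library 2 (-0.77), 4 (-0.77) or 6 (-0.79) or CD47-KO library 1 (-0.82) or 2 (-0.63). Psme1 stood at 16.5, 15.7 and 11.5 CPM, overlapping the sedentary but not the exercise range. It differed from sedentary by -0.46 (adjusted p = 0.120) and fell from exercise by 0.90 on the log2 scale (SE 0.20, adjusted p = 0.00501), a call lost without CD47-KO library 3 (-0.71). The 7 leukocyte markers summed to 38.3 to 50.0 CPM in the libraries labelled CD47-KO, inside the 17.9 to 78.7 of sedentary and the 26.7 to 64.8 of exercise libraries. Against sedentary 0 of 7 rose and 1 (Cd3e) fell, but 4 of 7 log2 differences were above 0 (median 0.64). Against exercise 1 of 7 rose and 1 fell. The 4 endothelial markers summed to 141 to 167 CPM, within the 129 to 357 of sedentary libraries and against 157 to 307 in exercise libraries, and 1 of 4 (Tie1) fell. The 3 fibroblast markers summed to 243 to 293 CPM, against 82.6 to 460.3 and 103 to 188 CPM, and 2 of 3 (Dcn and Pdgfra) rose against sedentary, Dcn with 214 to 263 CPM against 57.7 to 139. The third, Col1a1, had a median of 16.2 CPM, against 30.8 in sedentary and 39.7 in exercise libraries. With the GC correction 1 of the 3 rose against sedentary, and their median log2 difference went from 0.91 to -0.31. Of the 6 fibre markers 2 fell, and 0 fell with the GC correction. The part of these cell types in the members' values was not tested.

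In the 19S particle the ATPase Psmc6 rose and the ATPases Psmc4 and Psmc5 fell, and none of the 3 calls held with the GC correction (0.28, -0.37 and -0.36 from sedentary). Psmc6 stood at 138, 124 and 135 CPM in the libraries labelled CD47-KO, against 16.1 to 49.4 (median 36.8) in sedentary and 23.7 to 47.4 (median 32.9) in exercise libraries. All 3 lay above the other 12, and the log2 difference was 1.89 from sedentary (SE 0.29, adjusted p = 0.000363) and 2.02 from exercise (SE 0.29, adjusted p = 0.000163). Per kilobase it went from 10.2 ± 3.85 (SD, n = 6) in sedentary to 37.9 ± 2.10 (SD, n = 3). Psmc5, another ATPase of the ring, stood at 97.7, 81.0 and 87.4 CPM, below the 102 to 178 (median 127) and 116 to 158 (median 131) of the other groups. Psmc5 fell by 0.59 from sedentary (SE 0.19, adjusted p = 0.0344) and by 0.58 from exercise (SE 0.19, adjusted p = 0.0371) on the log2 scale. Both calls were lost in 7 of 9 fits without 1 library: for sedentary without sedentary 2, 4, 5 or 6 (highest -0.42) or any library labelled CD47-KO, for exercise without exercise 2, 4, 5 or 6 (highest -0.47) or any library labelled CD47-KO. Psmc4 fell from sedentary by 0.63 on the log2 scale (SE 0.21, adjusted p = 0.0433), a call that 8 of 9 such fits lost (-0.675 to -0.46), all but the one without sedentary library 1.

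Of the 8 lid genes, 5 had a log2 difference from sedentary above 0 and 1 passed. Psmd11, a lid scaffold, stood at 131, 115 and 193 CPM, against 63.1 to 126 (median 82.9) and 73.1 to 102 (median 94.2). Its lowest library labelled CD47-KO overlaps the highest sedentary one. The log2 differences were 0.72 from sedentary (SE 0.21, adjusted p = 0.0251) and 0.68 from exercise (SE 0.22, adjusted p = 0.0350). Both were lost without CD47-KO library 3 (0.52 and 0.47), and without sedentary library 1 (0.66) or exercise library 1 (0.62). Psmd6, another lid scaffold, stood at 128, 115 and 125 CPM, above the 54.9 to 95.8 of sedentary libraries (median 93.1) and the 75.9 to 109.5 of exercise libraries (median 79.4). It rose from exercise by 0.55 on the log2 scale (SE 0.19, adjusted p = 0.0475) and did not pass from sedentary (0.50, adjusted p = 0.0719). The first call was lost in 8 of 9 fits without 1 library (0.53 to 0.59), all but the one without exercise library 3. The lid deubiquitinase Psmd14 stood at 38.7, 34.1 and 49.3 CPM and overlapped the 18.2 to 43.5 (median 29.5) of sedentary and the 18.2 to 35.5 (median 29.0) of exercise libraries, at 0.38 from sedentary (adjusted p = 0.359). The base ubiquitin receptor Psmd4 stood at 137, 115 and 135 CPM, below 137 to 289 (median 166) and 146 to 180.2 (median 165), at -0.48 from sedentary (adjusted p = 0.131).

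Among the remaining members, Psme4, the activator PA200, moved most. It stood at 385, 329.9 and 518 CPM in the libraries labelled CD47-KO, against 73.0 to 202 (median 174) in sedentary and 108 to 295 (median 151) in exercise libraries. The groups do not overlap, and the log2 differences were 1.40 from sedentary (SE 0.32, adjusted p = 0.00551) and 1.29 from exercise (SE 0.32, adjusted p = 0.00884), the second lost without CD47-KO library 3 (1.13). Psme3 stood at 54.5, 47.1 and 51.0 CPM, overlapping the 49.3 to 65.8 of sedentary libraries (median 55.5) and below the 55.1 to 70.7 of exercise libraries (median 62.9), at -0.16 from sedentary (adjusted p = 0.527). The inhibitor Psmf1 stood at 10.9, 10.3 and 12.0 CPM, below 12.0 to 18.4 (median 13.2) and 12.1 to 19.4 (median 14.8), at -0.38 from sedentary (adjusted p = 0.198). Psmg1, a partner in the first alpha ring chaperone, fell by 0.85 from sedentary on the log2 scale (SE 0.28, adjusted p = 0.0403), a call that 7 of 9 fits without 1 library lost (-0.91 to -0.55): those without sedentary 2, 4, 5 or 6 or any library labelled CD47-KO.

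Against exercise muscle, 4 of 47 members (8.51%) rose in the libraries labelled CD47-KO, against 12.2% of all genes, and 7 (14.9%) fell, against 8.34%. The higher members were Psmc6, Psmd6, Psmd11 and Psme4, and the lower ones Psmb5, Psmb6, Psmc5, Psmd9, Psme1, Psme2 and Psme2b. Psmd9, a base chaperone, stood at 11.9, 8.54 and 12.2 CPM, below the 12.9 to 21.8 of sedentary (median 15.8) and the 13.1 to 22.8 of exercise libraries (median 17.5). Its log2 difference from exercise was -0.69 (SE 0.22, adjusted p = 0.0350), lost without exercise library 4, 5 or 6 or any 1 of the libraries labelled CD47-KO (-0.74 to -0.55). The antisense gene Gm26745 covers 25.5% of Psmd9 exon bases. This comparison shares the libraries labelled CD47-KO with the one against sedentary. The count of higher members was 1 without CD47-KO library 3 and 2 without exercise library 1. The count of lower members was 2, 3 or 2 without CD47-KO library 1, 2 or 3, and 4, 2, 4 and 3 without exercise library 2, 4, 5 and 6. For these fits the share of all genes called is not given here, so whether it changed likewise is not shown. All 3 libraries labelled CD47-KO lay above all 12 others in 4 members (8.51%, beside 13.5% of genes tested): Psma4, Psmc6, Psmd6 and Psme4. They lay below all 12 in 12 members (25.5%, beside 7.87%): Psmb4, Psmb5, Psmb6, Psmb8, Psmb10, Psmc5, Psmd4, Psmd9, Psme2, Psme2b, Psmf1 and Psmg1. Those 12 hold 3 of 7 constitutive beta genes, 2 of 2 immunoproteasome beta genes, 0 of 7 alpha genes and 0 of 8 lid genes.

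The folds followed the GC content of the transcripts. Across the 47 members, Spearman's rho between transcript GC content and the log2 difference from sedentary was -0.666, and across 17914 genes -0.555. Genes share their libraries and are no replicates. Psmc6, with the largest rise, has the lowest GC content of the members at 37.0%, and Psmb5 has 56.6%. After a correction of each library for GC content rho was 0.109 for members and 0.000266 for genes. The correction takes out each library's trend with GC content over all genes, so the small rho over genes was set in advance. With it 0 members rose against sedentary in edgeR (1 at an unadjusted p under 0.05, beside 4.31% of genes called higher), and 6 fell (4.64% of genes): Psma2 (-1.51), Psma3 (-0.92), Psmb7 (-1.46), Psmc2 (-0.95), Psmd10 (-0.83) and Psme2b (-1.18). Psme2b alone of the 47 was called both with and without the correction, and its counts are uncertain because it is a near copy of Psme2. Psmb5 moved to -0.59 (adjusted p = 0.0647), Psmb6 to -0.89 (adjusted p = 0.0832), Psmb8 to -1.08 (adjusted p = 0.106), Psme2 to -0.92 (adjusted p = 0.119), Psmc6 to 0.28 (adjusted p = 0.305) and Psme4 to 0.78 (adjusted p = 0.126), and Psmd11 turned to -0.58 (adjusted p = 0.136). Of the 5 immunoproteasome and 11S genes 1 was called, and their log2 differences ran from -1.18 (Psme2b) to -0.01 (Psme1) with a median of -0.92, beside -0.36 over all members and -0.09 over all genes. Against exercise 0 members rose after the correction (0 at an unadjusted p under 0.05, 4.51% of genes called) and 4 fell (4.57% of genes): Psma2 (-1.61), Psmb7 (-1.50), Psmc2 (-1.01) and Psmd10 (-1.01).

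**Figure D3:**
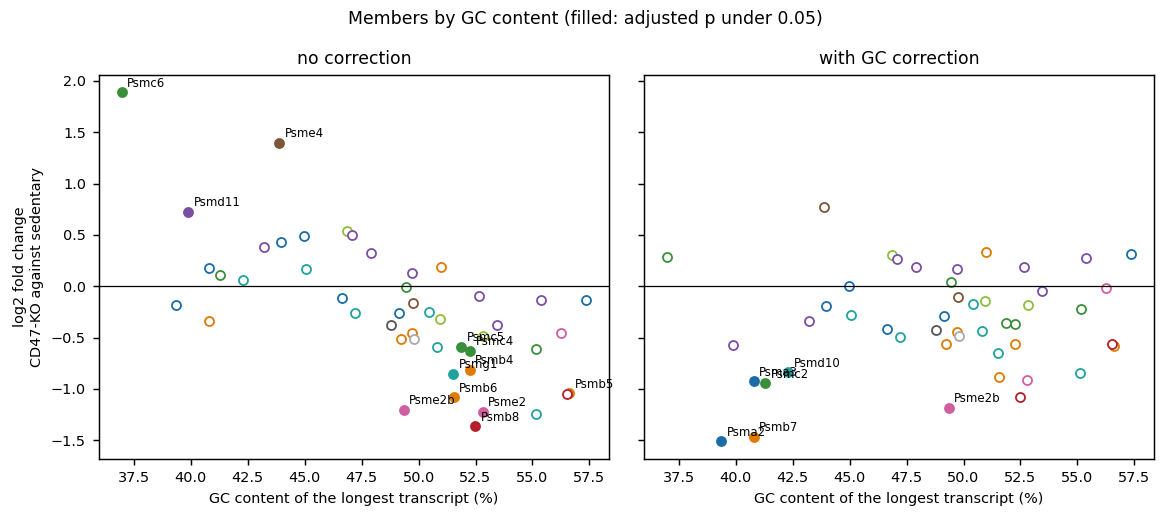
Log2 difference between the libraries labelled CD47-KO and sedentary against transcript GC content (percent), 1 point per member, without (first panel) and with (second panel) the GC correction. Without it the members fall along a slope (rho -0.666), with Psmc6 lowest in GC content at 37.0% and Psma7, which was not called, highest at 57.4%. Psmb5 has 56.6%, Psmb10 56.5%, Psmb8 52.5% and Psme2b 49.3%. With the correction, which takes out the trend over all genes by design, rho was 0.109 over members.

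Which libraries served as the control also mattered. Sedentary library 6 stood apart at the top of its group for 11 members. Without it 4 members rose (14.1% of genes called) and 5 fell (7.62%): Psmb5 at -0.84, Psmb6 at -0.77, Psmb8 at -0.93, Psme2 at -0.86 and Psme2b at -1.14. When only libraries numbered 1 to 3 were used, 12 members rose (19.2% of genes called) and 7 fell (13.8%). The 12 included 5 of 7 alpha genes and 4 of 8 lid genes, and the alpha median moved from -0.12 to 0.48. The 7 were Psmb4, Psmb5, Psmb6, Psmb8, Psmb10, Psme2 and Psme2b.

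As a share of the summed CPM of all members, the beta ring took 12.6 to 15.2% in the libraries labelled CD47-KO and 16.9 to 27.1% in the other 12, with no overlap. The alpha ring took 12.0 to 13.5%, above the 9.66 to 10.7% of exercise and sedentary libraries numbered 1 to 3 and overlapping the 13.1 to 14.7% of those numbered 4 to 6. The lid took 24.2 to 27.4%, against 20.5 to 25.0% in sedentary and 22.0 to 24.1% in exercise libraries. Psmb8, Psmb9 and Psmb10 together made up 1.50 to 1.80% of the CPM of the 6 catalytic beta genes in the libraries labelled CD47-KO (mean 1.67 ± 0.153, SD, n = 3), 1.40 to 3.70% in sedentary (2.26 ± 0.946, n = 6) and 1.59 to 2.67% in exercise libraries (2.001 ± 0.373, n = 6). All 3 groups overlap. Psmb8 over Psmb5 ranged over 0.0243 to 0.0287, inside the 0.0190 to 0.0482 of sedentary libraries and the 0.0163 to 0.0404 of exercise libraries. Psmb10 over Psmb7 ranged over 0.0156 to 0.0189, against 0.0154 to 0.0493 and 0.0186 to 0.0277, also with overlap.

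**Figure D4:**
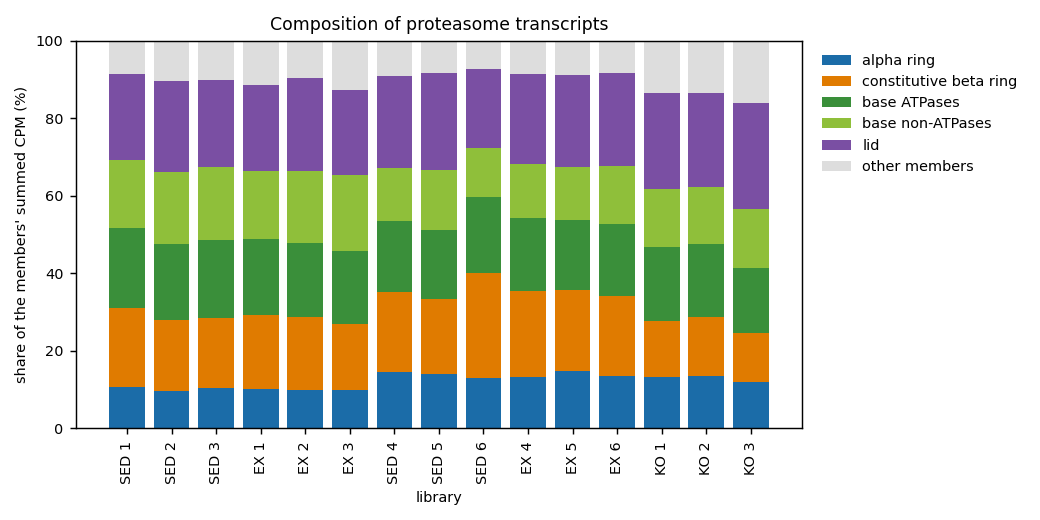
Share of the members' summed CPM (percent, stacked to 100) taken by each class in each library. The beta ring is narrowest in the 3 libraries labelled CD47-KO (12.6 to 15.2%). The alpha ring is narrower in exercise and sedentary libraries numbered 1 to 3 (9.66 to 10.7%) than in those numbered 4 to 6 (13.1 to 14.7%).

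Of the classes, the alpha ring had the largest median difference between the 2 sets of exercise and sedentary libraries. Compared over 12 libraries with a term for exercise, those numbered 4 to 6 exceeded those numbered 1 to 3 in 28 of 47 members (59.6%, against 14.3% of 17072 genes) and lay lower in 1 (2.13%, against 14.9%). This comparison was added with earlier results of these data known, and no label says what separates the numbers, although exercise libraries titled 4 to 6 carry the numbers 6 to 8 in their descriptions. All 7 alpha genes rose, with a median log2 difference of 0.81 and a range of 0.47 to 1.08. Of the beta ring 6 of 7 rose (median 0.60), of the ATPases 4 of 6, of the lid 4 of 8, of the chaperones 6 of 7, and the inhibitor Psmf1 rose, while 0 of 3 other base subunits and 0 of the 5 immunoproteasome and 11S genes passed. The median was 0.58 over the chaperones, close to that of the beta ring. It was 0.30 in the 19S particle, 0.22 over the 5 immunoproteasome and 11S genes, 0.44 over all members and -0.05 over all genes. The 1 lower member was the ATPase Psmc1.

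Psma1, an alpha ring subunit, had the smallest p of the members. It stood at 37.2 to 39.7 CPM in sedentary and 34.8 to 40.7 CPM in exercise libraries numbered 1 to 3, and at 69.6 to 88.2 and 75.9 to 92.8 CPM in those numbered 4 to 6. The 2 sets do not overlap, the libraries labelled CD47-KO lay at 76.5 to 84.7 CPM, and the log2 difference between the sets was 1.08 (SE 0.11, adjusted p = 4.5e-05). By p-value Psma2 followed, at a log2 difference of 0.86 (SE 0.09), from 41.9 to 48.9 CPM in numbers 1 to 3 and from 78.9 to 87.3 CPM in numbers 4 to 6. Psma6 was at 0.81 (SE 0.10), Psma5 at 0.68 (SE 0.09) and the lid subunit Psmd13 at 0.56 (SE 0.09, with 51.0 to 53.6 against 70.9 to 85.4 CPM), without overlap in any of them. The antisense gene Sirt3 covers 10.1% of Psmd13 exon bases. Psmc1 stood at 166 to 211 CPM in numbers 1 to 3 and at 112 to 132 CPM in numbers 4 to 6, a log2 difference of -0.59 (SE 0.11, adjusted p = 0.00184). Psmb5 was the constitutive beta gene that did not pass, at 0.15 (adjusted p = 0.424), and Psmb8 (0.07), Psmb10 (0.44) and Psme2 (0.22) did not pass either. All 6 libraries numbered 4 to 6 lay above all 6 numbered 1 to 3 in 24 members (51.1%, beside 8.47% of genes tested), among them all 7 alpha genes, and below in 1 (2.13%, beside 8.01%), Psmc1.

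With the GC correction 29 members were higher (15.7% of genes) and 1 lower (13.6%), and 24 of the higher ones were called both ways. In the 6 exercise libraries alone 20 were higher (10.3% of genes) and 2 lower (12% of genes), Psmc1 and Psme4. In the 6 sedentary libraries alone 0 passed in edgeR (0.529% of genes were higher and 0.405% lower), with 20 higher and 1 lower at an unadjusted p under 0.05. The test of the difference between these 2 steps called 0 of 17072 genes in edgeR, with 814 at an unadjusted p under 0.05, and no DESeq2 fit of it was run. Mitochondrial share was 4.49 to 7.87% in numbers 1 to 3 and 7.81 to 18.2% in numbers 4 to 6, and its part in these values was not tested.

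**Figure D5:**
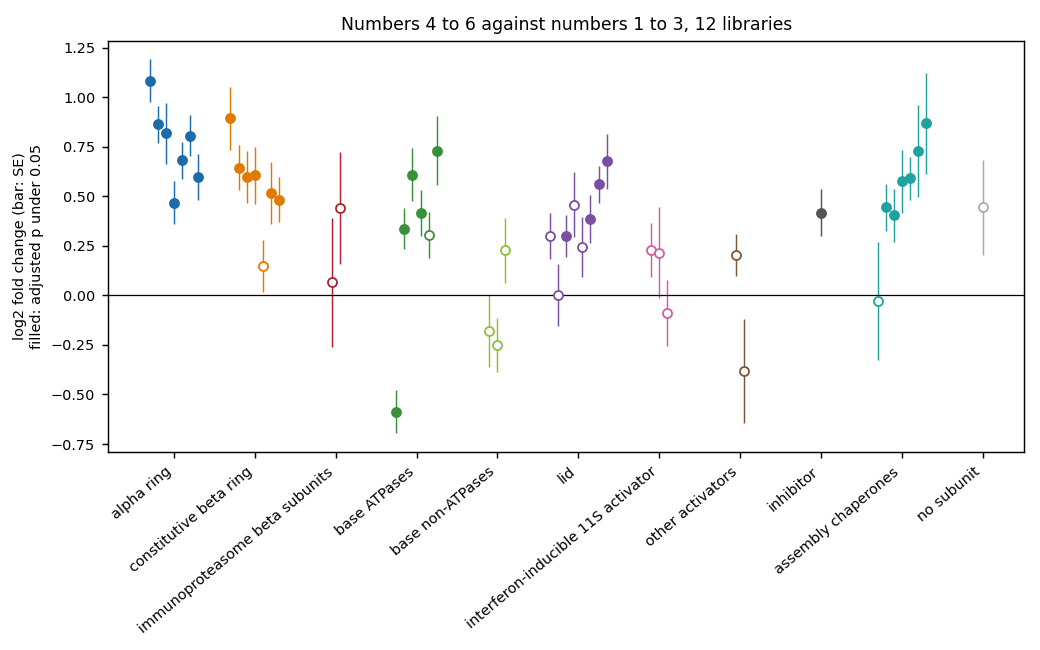
Log2 difference of each member between exercise and sedentary libraries numbered 4 to 6 and those numbered 1 to 3, by class, with bars of 1 SE. All 7 alpha genes lie above 0 (0.47 to 1.08), as do the constitutive beta genes, of which Psmb5 is lowest at 0.15. Psmc1 is the lowest member at -0.59.

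Pathway genes outside the rule were counted by list. Of 11 proteasome cofactors, 5 rose in the libraries labelled CD47-KO against sedentary and 2 fell, where 11.9% of all genes rose and 8.75% fell, which is also the background for the other lists in this comparison. Txnl1, a thioredoxin-like 19S partner, rose by 1.30 (SE 0.22, adjusted p = 0.000746) on the log2 scale and the 19S deubiquitinases Usp14 by 1.18 (SE 0.28, adjusted p = 0.00783) and Uchl5 by 0.83 (SE 0.22, adjusted p = 0.0132). The other risers were Ecpas and Zfand5. The 2 that fell, named after their values were seen, were Pomp, the maturation factor of the beta ring, at -0.53 (SE 0.17, adjusted p = 0.0366) and the small lid subunit Sem1 at -1.37 (SE 0.36, adjusted p = 0.0142). With the GC correction (4.31% of all genes higher, 4.64% lower) 0 of 11 rose in edgeR and 1 fell, Sem1 at -2.20. Of 6 shuttle factors, which carry ubiquitinated proteins to the proteasome, 4 rose and 1 fell, and 3 rose with the GC correction. Ubqln1 was at 0.86 (SE 0.17, adjusted p = 0.00204), Ubqln2 at 1.18 (SE 0.26, adjusted p = 0.00453) and Rad23b at 0.90 (SE 0.22, adjusted p = 0.00899). Ddi2 also rose (1.11) and Ubqln4 fell (-0.51), and with the correction Ubqln1, Ubqln2 and Ddi2 passed. Of 6 genes of the segregase p97 and its partners, 0 passed in edgeR, and 0 had an unadjusted p under 0.05. Among ubiquitin and E1 genes, the second E1 enzyme Uba6 rose, at 2.19 (SE 0.31, adjusted p = 0.000176), and the ubiquitin-ribosomal fusion Rps27a fell, at -1.08 (SE 0.36, adjusted p = 0.0406). With the GC correction 0 genes of this list rose, so the rise of Uba6 was lost. Ubiquitin genes are near copies of each other and their counts are uncertain.

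Of 8 genes around NRF1 and its relative NRF2, 3 rose and 0 fell (11.9% and 8.75% of all genes). Nfe2l2, which encodes NRF2, went from 54.0 ± 13.1 CPM in sedentary (SD, n = 6) to 139 ± 21.7 (SD, n = 3), a log2 difference of 1.36 (SE 0.19, adjusted p = 0.000161). Bach1, a repressor at the same elements, was at 1.83 (SE 0.33, adjusted p = 0.00110) and Ngly1, which processes NRF1, at 1.11 (SE 0.26, adjusted p = 0.00612). With the GC correction Nfe2l2 stayed past the threshold at 1.11 and Bach1 at 1.58, while Ngly1 moved to 0.12 and Mafk passed at 1.17. Nfe2l1 itself stood at 320 ± 262 CPM in sedentary (SD, n = 6), 299 ± 195 in exercise (n = 6) and 185 ± 23.5 in the libraries labelled CD47-KO (n = 3), at -0.79 from sedentary (SE 0.59, adjusted p = 0.390). Of 12 antigen presentation and interferon genes, 0 rose and 2 fell (11.9% and 8.75% of all genes): the class I heavy chain H2-D1 at -1.06 (SE 0.24, adjusted p = 0.00580) and the peptide transporter subunit Tap1 at -1.65 (SE 0.52, adjusted p = 0.0353). Neither passed with the GC correction (-0.61 and -1.18). Between numbers 4 to 6 and 1 to 3, where 14.3% of all genes were higher and 14.9% lower, the counts of higher and lower genes were 4 (Akirin2, Sem1, Txnl1, Uchl5) and 1 (Ecpas) of 11 cofactors, 1 (Ubqln2) and 1 (Ddi2) of 6 shuttle factors and 1 (Nsfl1c) and 0 of the p97 group. They were 1 (Ubb) and 1 (Uba1) of the ubiquitin genes, 0 and 2 (Maff, Mafk) of the NRF1 list and 1 (B2m) and 0 of the antigen presentation list. Of these, Sem1, Txnl1, Uchl5, Uba1, Mafk and B2m did not pass with the GC correction. Exercise against sedentary gave 0 calls in each list.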

How the data were processed

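The authors deposited 1 table of gene counts for 22798 symbols in 15 libraries, made with Trimmomatic 0.30, HISAT2 2.0.1 and HTSeq 0.6.1 on GRCm38, per the submitters' processing notes. The kit does not mark strand, and the counting's strand setting is not given in the sources used here. Values of 4, 8 and 12 made up 32.1 to 50.2% of values from 1 to 15, so 1 count may not be 1 read. No 2 libraries of a group were copies (lowest chi-square per degree of freedom 78.1).

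Genes were filtered with filterByExpr (17975 left), scaled with TMM and tested in edgeR 4.0.16 (R 4.3.3) with a robust quasi-likelihood fit of all 15 libraries. The Benjamini-Hochberg adjustment covered the whole table, calls were made at 0.05, and standard errors come from the fold change and its F statistic. "Rose" and "fell" mean past this threshold. CPM values use the TMM-scaled library sizes, except in the rule that chose the members. The GC correction fitted log2-cpm (prior count 2) on the GC content of the longest transcript by lowess (span 0.3) in each library and used it as an offset. Exon lengths and overlaps are from GENCODE and promoters from RefSeq. All 47 members were annotated and passed the filter. Scripts were tested on simulated data. Alternatives used DESeq2 1.42.0, limma 3.58.1, other filters and factors, and fits without each library.

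Same-numbered exercise and sedentary libraries deviated together (r 0.194 to 0.364 over 6 pairs), but so did differently numbered ones within 1 to 3 and within 4 to 6 (r 0.115 to 0.312), so the numbers are not shown to pair single libraries. Libraries labelled CD47-KO did not pair with sedentary (r -0.102 to 0.0470). Members named with values in every library were the catalytic and immunoproteasome genes, the activators, Psmd4, Psmd14 and Psmf1, and in each comparison the 5 smallest p-values in each direction past the threshold, or 3 where none passed. Up to 3 genes were named per pathway list, and Nfe2l1 in any case; others named beside small counts were chosen after their values were seen. The members and lists were chosen with earlier results of these data known. Part of the list of ubiquitin and E1 genes is not reported here.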

Additional observations from a re-analysis of the deposited data

Results flagged for a closer look

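Within groups of 6 libraries, a value was picked out when its gap to the nearest other library was large against the group's range. This happened in 14 of 96 groups tested, where chance gives about 1 in 20, and members share libraries, so the picks are not independent. Sedentary library 6 was the highest of its group in 11: Psmb1 at 205.6 CPM, Psmb4 at 214.6, Psmb5 at 140.7, Psmb6 at 231.0, Psmb10 at 12.74, Psmc3ip at 2.346, Psmd4 at 289.3, Psme2 at 23.91, Psmg1 at 11.64, Psmg3 at 9.922 and Psmg4 at 10.01. This is the sedentary library with a mitochondrial share of 18.2%. Exercise library 3 was the highest in its group for Psmd1 at 207.3 CPM and Psmd6 at 109.5 CPM. Sedentary library 1 was the lowest in its group for Psmd6 at 54.86 CPM.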

How the results depend on the processing

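The number of members called lower in the libraries labelled CD47-KO against sedentary, 9, became 5 with the replicate block, 5 with the GC correction and replicate block together, 5 without a filter on low counts, 3 when only these 2 groups were fitted, and 2 to 12 when 1 library was left out. The number called higher, 3, became 5 with DESeq2, 0 with the GC correction, 12 from numbers 1 to 3 alone, 9 with the replicate block and 10 with a block for the 2 sets of numbers. Against exercise, the 4 higher became 0, 10, 9 and 11 under the GC correction, numbers 1 to 3 alone, the replicate block and the set block, and 1 to 5 without 1 library. The 7 lower became 4 with the GC correction, 4 with it and the replicate block, 4 without a filter and 2 to 7 without 1 library. Psmd11 turned to -0.576 with the GC correction and -0.65 with the replicate block too against sedentary, and to -0.697 and -0.801 against exercise. For exercise against sedentary the replicate block also called 0 members. Between numbers 4 to 6 and 1 to 3, the 28 higher and 1 lower became 0 and 0 in sedentary libraries alone, 2 lower in exercise libraries alone, and 1 to 2 lower without 1 library. The cause of these shifts was not tested, and the share of all genes called in each fit is not set beside these counts. Psmb8, Psmb9 and Psmb10 had 324 to 955 counts per library together, which limits their precision.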

Other observations

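Psmd5, a chaperone of the 19S base, stood at 3.94 CPM in sedentary library 6 and at 11.1 to 19.7 CPM in the other 5 sedentary libraries, opposite in direction to the members that were highest in that library. Psma8, the testis alpha subunit, was above 0 in 2 of 15 libraries.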
